A study of Rattus norvegicus with 6 samples.

Results

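Pyruvate dehydrogenase, its kinases, its phosphatase Pdp1 and the mitochondrial pyruvate carrier were examined at the RNA level in rat myocardium. The 10 genes Pdha1, Pdhb, Dlat, Pdk1, Pdk2, Pdk3, Pdk4, Pdp1, Mpc1 and Mpc2 were taken by name from 32623 genes in the table, each matched 1 row, and all 10 passed the expression filter. Total RNA had been sequenced from 3 sham samples and 3 ischemia samples of genotype WT. The labels of all samples carry 1 shared surgical description, of male rats under anesthesia and ventilation with a left thoracotomy, and do not say which of these steps the sham group had. In the ischemia group the left anterior descending coronary artery was tied, with ST-segment elevation as the sign of occlusion, and both groups carried a time label of 30 min. No ligation was described for the sham group, and strain, age and the sampled region of the heart were not given. Whether the replicates came from separate animals was not stated in the labels, so p-values measure the spread between these samples. Where 3 values are given for a group, they are those of replicates 1, 2 and 3 in that order.

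Pyruvate dehydrogenase sits in the mitochondrial matrix and turns pyruvate, the end product of glycolysis, into acetyl-CoA for the tricarboxylic acid cycle. The kinases Pdk1 to Pdk4 phosphorylate its E1 alpha subunit and switch it off, and the phosphatases switch it on again. In the heart this switch sets how much glucose is burned against fatty acids, and Pdk4 is the isoform known for its induction by fasting and by lipids.

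Total counts ranged from 68529126 to 79591989 per sample, so that 3 counts corresponded to 0.0377 to 0.0438 CPM, which is the count after scaling for library size. The samples differed in their tissue markers. The summed FPKM (fragments scaled by gene length and library size) of 6 atrial cardiomyocyte markers was 48553, 216 and 39538 for sham, compared with 9639, 2079 and 1279.7 for ischemia. Sham replicate 2 was therefore the only sham sample low in atrial RNA. On 48 Y-linked genes sham replicate 1 held 161 reads where every other sample held 3218 to 8970, while the rats were described as male. Results are given with and without these samples where it changes a call.

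Taken over all genes, the edgeR quasi-likelihood test called 5.18% of 13964 tested genes higher and 1.53% lower in ischemia at an adjusted p under 0.05. Of the 10 genes studied here, 0 were called in either direction. At an unadjusted p under 0.05 in edgeR, 1 was higher (Pdk4) and 2 were lower (Pdha1 and Pdp1), where 18.2% and 14.2% of all genes were. On the FPKM scale 1 of the 10 lay higher in each ischemia sample than in each sham sample, again Pdk4, against 23.6% of all genes. Lower without overlap were 4 of the 10, namely Pdha1, Pdk2, Pdp1 and Mpc1, against 15.0% of all genes. The same genes were without overlap on TMM-scaled CPM, against 22.0% higher and 19.1% lower of all genes. The estimate was below 0 for 8 of the 10, against 50.1% of all genes, and for 7 of the 10 under scaling to total counts, with limma and with the replicate block, where Pdk1 turned positive. The median log2 fold change of the 10 genes was -0.76, against -0.0015 over all tested genes, and it was -0.50 without sham replicate 2, the atrial-low sham sample.

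**Figure D1:**
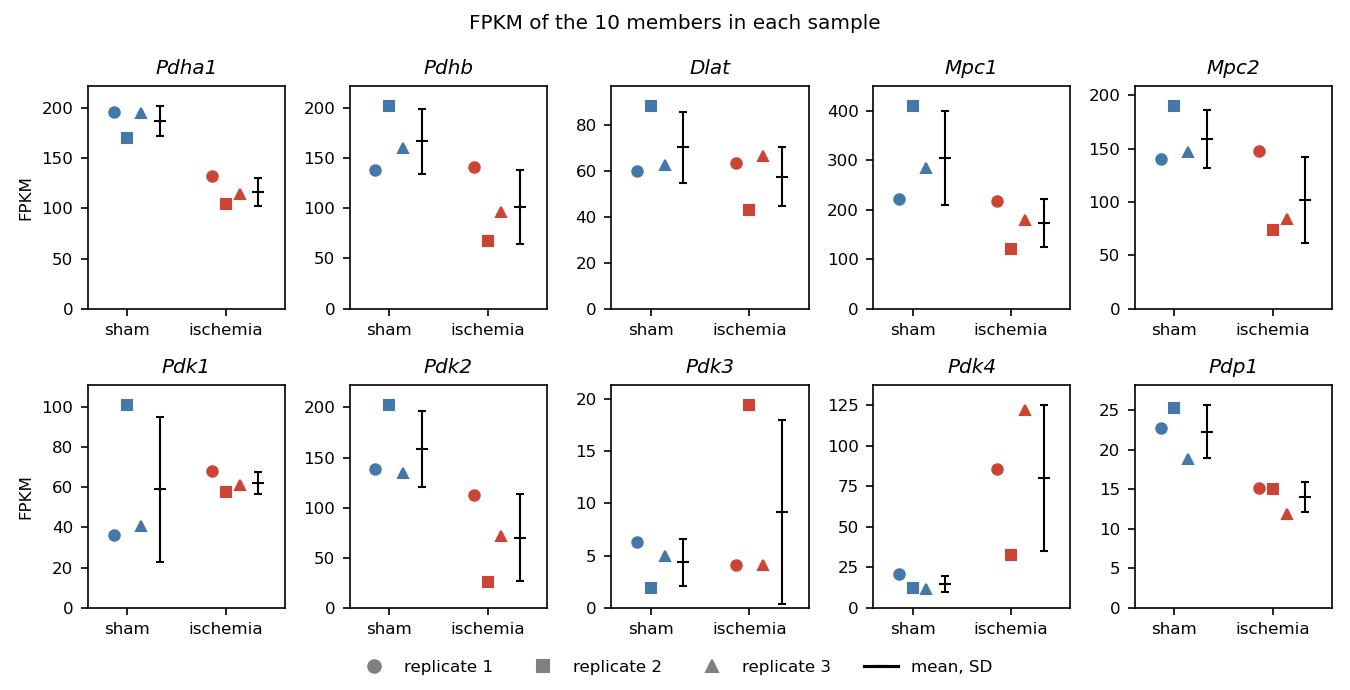
FPKM (vertical axes, from 0) of the 10 genes in the 3 sham (blue) and 3 ischemia (red) samples, with the symbol giving the replicate number and the black bar the mean and SD. Pdk4 was higher in each ischemia sample than in each sham sample, and Pdha1, Pdk2, Pdp1 and Mpc1 were lower in each.

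The kinases were compared first. The file places Pdk4 at 30546664 to 30556814 of chromosome 4, minus strand, without a stated build. Its FPKM was 20.7, 12.2 and 11.7 in the sham samples, compared with 85.6, 32.4 and 122 in the ischemia samples. Each ischemia sample was above each sham sample, and ischemia replicate 2 was the lowest of its group. The means were 14.9 ± 5.08 (SD, n = 3) and 79.97 ± 45.0 (SD, n = 3), and edgeR estimated Pdk4 to be 5.22-fold higher in ischemia. That estimate was 2.38 ± 0.54 (SE) on the log2 scale, with an unadjusted p of 0.00399 and an adjusted p of 0.0511 in edgeR, just outside the threshold. The study selected genes by a p under 0.01 together with a log2 fold change beyond 2, which in edgeR Pdk4 alone of the 10 met, as did 3.31% of all genes on the higher and 1.34% on the lower side. In DESeq2, Pdk4 (adjusted p 0.00025), Pdha1 and Pdp1 were called, where 14.8% of all genes were called higher and 12.5% lower. With limma on log2(FPKM + 0.1) Pdk4 was the single call (adjusted p 0.0440), against 6.09% of all genes higher and 1.88% lower. When the filter was raised to an average FPKM of 5, Pdk4 (edgeR adjusted p 0.0441) and Pdha1 were called, against 8.89% higher and 3.57% lower. Without ischemia replicate 2 Pdk4 was called in edgeR at 2.78 (adjusted p 0.0276), against 3.31% of genes higher and 0.781% lower. Without sham replicate 1 the log2 fold change was 2.63 (edgeR adjusted p 0.165), and without sham replicate 2 it was 2.35 (0.122).

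Pdk2, the kinase that dominated the sham samples, showed the opposite order. In the file it spans 82839153 to 82852660 of chromosome 10, minus strand. Its FPKM was 138, 202 and 135 in the sham samples, compared with 113, 26.2 and 71.3 in the ischemia samples. All ischemia samples lay below all sham samples, with ischemia replicate 2 far below the rest. On the log2 scale the edgeR estimate was -1.28 ± 0.57 (SE) with an adjusted p of 0.176, and -0.87 with an adjusted p of 0.214 without ischemia replicate 2.

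Because Pdk4 and Pdk2 had the highest and the lowest estimate of the set, the 250 bases upstream of their annotated starts are shown, taken from RefSeq on build GRCr8. Capitals mark matches, on either strand, to GGGCGG, known as the GC box, to the CCAAT box or to the hypoxia response core, spelled ACGTG. The Pdk4 window is chr4:34568330-34568579 on the minus strand and the Pdk2 window is chr10:80483913-80484162 on the minus strand.
Pdk4: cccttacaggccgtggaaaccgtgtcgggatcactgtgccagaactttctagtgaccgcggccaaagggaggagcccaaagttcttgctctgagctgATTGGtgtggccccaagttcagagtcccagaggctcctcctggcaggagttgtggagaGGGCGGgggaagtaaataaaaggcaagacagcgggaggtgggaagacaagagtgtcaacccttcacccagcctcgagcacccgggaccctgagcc
Pdk2: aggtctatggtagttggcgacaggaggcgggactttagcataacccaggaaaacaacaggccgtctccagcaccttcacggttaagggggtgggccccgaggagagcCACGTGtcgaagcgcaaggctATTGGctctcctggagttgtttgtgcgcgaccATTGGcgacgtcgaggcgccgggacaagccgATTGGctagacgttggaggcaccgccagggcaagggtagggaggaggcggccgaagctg

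The Pdk4 window held 1 GC box, from -95 to -90 relative to the start, and 1 CCAAT box from -153 to -149. It held 0 copies of the hypoxia response core, 0 of the FoxO core (GTAAACA), 0 of the nuclear receptor half-site (AGGTCA) and 0 of the TATA box (TATAAA). The Pdk2 window held 3 CCAAT boxes and a palindromic CACGTG, which counts as 2 overlapping hypoxia response cores between -143 and -138. Over 33469 rat promoters of the same length, both strands searched, 30.5% held the GC box, 34.0% the CCAAT box and 16.6% the hypoxia response core. The FoxO core was in 3.21%, the half-site in 14.1% and the TATA box in 12.9%. Entries were matched for 9 of the 10 genes. Among the others Pdhb held 4 hypoxia response cores, in a pair of palindromes, and the single FoxO core, while Pdk3 and Dlat held 1 hypoxia response core each. The single half-site of the set was in Dlat. CpG dinucleotides numbered 9 in the Pdk4 window, 20 in that of Pdk2 and 30 in that of Dlat, against a median of 5 over all promoters. These letters describe sequence only, and factor binding was not measured.

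Pdk1, a kinase known as a target of hypoxia-inducible factor, had an FPKM of 36.0, 101 and 40.5 in the sham samples, compared with 67.9, 57.4 and 61.0 in the ischemia samples. Sham replicate 2, the sham sample low in atrial RNA, was the highest of all, and the groups overlapped. Its log2 fold change was -0.09 ± 0.50 (SE; edgeR adjusted p 0.910), and 0.72 without sham replicate 2 (edgeR adjusted p 0.115). With all samples it was 0.23 with limma on log2(FPKM + 0.1), 0.079 under scaling to total counts and 0.17 with the replicate block, so its sign depended on the fit as well as on that sample. The part of atrial tissue in this value was not tested beyond the covariate fit, in which it was -0.38 (edgeR adjusted p 0.604).

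Pdk3, the least abundant kinase, had an FPKM of 6.25, 1.87 and 4.92 in the sham samples, compared with 4.08, 19.3 and 4.07 in the ischemia samples. Only ischemia replicate 2 was above the sham range. The estimate was 0.98 ± 0.68 (SE; edgeR adjusted p 0.343), and -0.08 without ischemia replicate 2 (edgeR adjusted p 0.926). Myeloid markers were also highest in that sample. The FPKM of S100a8, a calcium-binding protein gene of neutrophils, was 1176 there, against 216 and 198 in ischemia replicates 1 and 3 and at most 6.39 in sham. The part of these cells in the Pdk3 value was not tested.

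The kinase mRNA pool was then compared within each sample, which removes the scaling between libraries. The share of Pdk4 in the summed FPKM of Pdk1 to Pdk4 was 10.3%, 3.84% and 6.12% in the sham samples, compared with 31.7%, 24.0% and 47.2% in the ischemia samples. The share of Pdk2 was 68.7%, 63.8% and 70.2% for sham, compared with 41.7%, 19.4% and 27.6% for ischemia. Neither share overlapped between the groups, and Pdk2 went from the largest share in each sham sample to the largest in ischemia replicate 1 alone. On average Pdk4 was 27.5 percentage points higher and Pdk2 differed by -38.0 percentage points, each with an exact permutation p of 0.1, the smallest that 3 against 3 samples can give, and 0.2 after adjustment over the 4 kinases. The shares of Pdk1 (23.6% ± 7.27 in sham and 30.4% ± 10.4 in ischemia, SD, n = 3, exact permutation p 0.5) and Pdk3 (2.09% ± 1.32 and 5.79% ± 7.36, SD, n = 3, exact permutation p 0.8) overlapped. The summed FPKM itself averaged 237 ± 69.4 over the sham and 221 ± 74.7 over the ischemia samples (SD, n = 3 each).

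**Figure D2:**
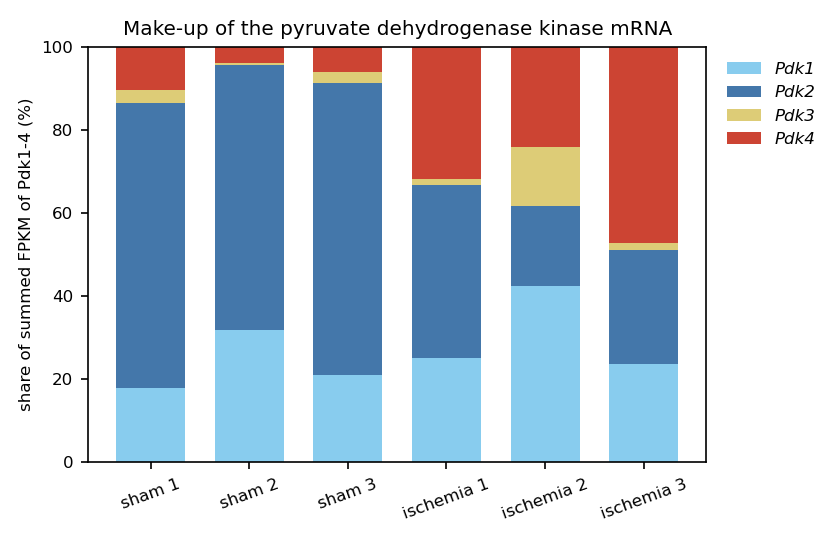
Share of each kinase in the summed FPKM of Pdk1 to Pdk4 (vertical axis, percent), 1 stacked bar per sample. Pdk2 made up 63.8% to 70.2% in sham and 19.4% to 41.7% in ischemia, while Pdk4 made up 3.84% to 10.3% in sham and 24.0% to 47.2% in ischemia.

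The ratio of Pdk4 to Pdk2 gave the largest difference among 12 ratios that were compared. Pdk4 was higher and Pdk2 lower in every ischemia sample, so the separation of this ratio follows from the single-gene values and is not a separate result. Pdk4 FPKM was 0.150, 0.0602 and 0.0871 times that of Pdk2 in the sham samples, compared with 0.759, 1.24 and 1.71 times in the ischemia samples. The difference of the mean log2 ratios was 3.67, with an exact permutation p of 0.1 and an adjusted p of 0.514 over the 12 ratios, and it was between 3.36 and 4.02 with any single sample left out. Pdk1 relative to Pdk2 also did not overlap between the groups (difference 1.62 in log2 ratio, exact permutation p 0.1, adjusted 0.514). Pdk4 relative to Pdk1 was 2.04 higher (exact permutation p 0.2) and relative to Pdk3 1.45 higher (exact permutation p 0.4), both with overlap. The latter was 2.75 without ischemia replicate 2, 0.67 without ischemia replicate 3 and 0.93 without ischemia replicate 1.

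Pdp1 encodes the catalytic subunit of a phosphatase that reactivates the complex. Its FPKM was 22.8, 25.4 and 18.8 in the sham samples, compared with 15.2, 15.1 and 11.9 in the ischemia samples. Every ischemia sample was below every sham sample, and the spread within each group was small. Its edgeR log2 fold change was -0.78 ± 0.23 (SE) with an unadjusted p of 0.0138 and an adjusted p of 0.0843, and DESeq2 gave -0.81 with an adjusted p of 0.0185. Summed kinase FPKM per Pdp1 FPKM was 8.84, 12.5 and 10.2 for sham, compared with 17.7, 8.99 and 21.8 for ischemia. The groups overlapped through ischemia replicate 2, with a difference of 0.54 in log2 ratio and an exact permutation p of 0.3. The difference was 0.92 without ischemia replicate 2 and 0.28 without ischemia replicate 3.

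Next came the catalytic subunits. Pdha1, placed by the file at 37329779 to 37343410 of chromosome X, plus strand, encodes the E1 alpha subunit that carries the phosphorylation sites. Its FPKM was 196, 170.2 and 195 in the sham samples, compared with 132, 104 and 114 in the ischemia samples. The groups were separate and tight, at 187 ± 14.7 (SD, n = 3) and 117 ± 14.1 (SD, n = 3). With edgeR Pdha1 was 1.70-fold lower in ischemia (log2 fold change -0.76 ± 0.20 SE, unadjusted p 0.00868, adjusted p 0.0692). The adjusted p was 0.000847 with DESeq2, 0.0446 in edgeR with the filter raised to an average FPKM of 5 and 0.192 without sham replicate 1 in edgeR. Pdha1 and Pdk3 are the X-linked genes of the set, and sham replicate 1, with few Y-linked reads, was not apart from sham replicate 3 for either.

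Pdhb, the E1 beta subunit, had an FPKM of 138, 202 and 160.2 in the sham samples, compared with 141, 67.2 and 96.3 in the ischemia samples. Ischemia replicate 1 reached into the sham range. The edgeR log2 fold change was -0.82 ± 0.38 (SE; adjusted p 0.184), against -0.53 without sham replicate 2. The ratio of Pdhb to Pdha1 differed by -0.08 on the log2 scale (exact permutation p 0.8), and 0.14 without sham replicate 2 and 0.11 without ischemia replicate 2. Dlat, the E2 acetyltransferase that forms the core of the complex, had an FPKM of 60.0, 87.96 and 62.5 in the sham samples, compared with 63.1, 42.7 and 66.1 in the ischemia samples. Only ischemia replicate 2 lay outside the sham range, and the edgeR log2 fold change was -0.40 ± 0.34 (SE; adjusted p 0.430). Without sham replicate 2 it was -0.07 and without ischemia replicate 2 it was -0.19. Dlat relative to Pdha1 was 0.39 higher in log2 ratio (exact permutation p 0.3), and between 0.25 and 0.63 with any single sample left out, lowest without sham replicate 1 and highest without sham replicate 2.

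The carrier genes Mpc1 and Mpc2 encode partner proteins that together bring pyruvate across the inner mitochondrial membrane. Mpc1, the gene with the highest mean FPKM of the set in both groups, measured 222, 409 and 283 in the sham samples, compared with 217, 120.3 and 179 in the ischemia samples. The groups did not overlap, but ischemia replicate 1 lay just under sham replicate 1, and the edgeR log2 fold change was -0.94 ± 0.40 (SE; adjusted p 0.160). Leaving out sham replicate 2, the sample with the highest Mpc1, gave -0.52. For Mpc2 the FPKM was 140.4, 189.6 and 146 in the sham samples, compared with 148, 73.6 and 84.2 in the ischemia samples. Ischemia replicate 1 was inside the sham range, and the edgeR log2 fold change was -0.75 ± 0.36 (SE; adjusted p 0.198). Leaving out sham replicate 2 gave -0.47 and leaving out ischemia replicate 1 gave -1.14. Mpc1 relative to Mpc2 differed by -0.12 in log2 ratio (exact permutation p 0.7), and by -0.28 to -0.01 with any single sample left out. Carrier FPKM summed and set against Pdha1 differed by -0.09 in log2 ratio (exact permutation p 0.9), and by -0.28 to 0.18 with any single sample left out.

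In order of mean FPKM, sham samples had Mpc1 (305), Pdha1 (187), Pdhb (167), Mpc2 (159), Pdk2 (158), Dlat (70.1), Pdk1 (59.0), Pdp1 (22.3), Pdk4 (14.9) and Pdk3 (4.35). From Pdha1 to Pdk2 the ranges of neighbours overlapped, as they did for Dlat and Pdk1 and for Pdp1 and Pdk4. In ischemia samples Pdk4 held place 5 instead of place 9, between Pdhb (101) and Pdk2 (70.0), and the ranges of all neighbours from Mpc1 to Dlat overlapped there.

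**Figure D3:**
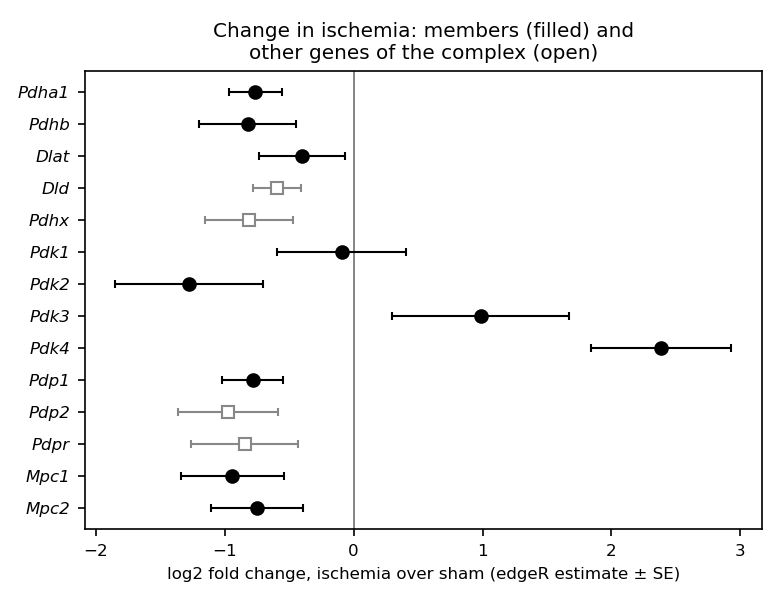
edgeR log2 fold change of ischemia over sham (horizontal axis) with its SE for the 10 genes (filled circles) and 4 other genes of the complex (open squares). Pdk4 (2.38) and Pdk3 (0.98) lie above 0, Pdk2 (-1.28) lies lowest, and the subunits and phosphatases lie between -0.40 and -0.97.

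The other genes of the complex were on the same side as the subunits, and 0 of 4 passed in edgeR. Dld, the E3 dihydrolipoamide dehydrogenase, had a log2 fold change of -0.59 ± 0.19 (SE; edgeR adjusted p 0.0936). DESeq2 called it lower at -0.62 (adjusted p 0.00842), as it did 12.5% of all genes. The FPKM of Dld was 71.5, 54.6 and 64.1 in the sham samples, compared with 51.8, 45.3 and 36.8 in the ischemia samples, without overlap. Estimates were -0.81 for Pdhx, which tethers E3 to the core, -0.97 for Pdp2, the second phosphatase, and -0.85 for Pdpr, the phosphatase regulatory subunit, with edgeR adjusted p-values of 0.160, 0.141 and 0.207. Without sham replicate 2 they were -0.53, -0.51 and -0.53, and for Pdpr -0.56 without ischemia replicate 2. Of these 4 genes, 3 were lower in each ischemia sample than in each sham sample on FPKM and 2 on scaled CPM, where 15.0% and 19.1% of all genes were.

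Lists of related genes were examined with the same fit, and their counts are read against the 5.18% and 1.53% of all genes. Lipoylation genes, which make and attach the lipoyl cofactor that E2 needs, had 0 of 9 called and a median log2 fold change of -0.49, or -0.29 without sham replicate 2 and -0.79 without ischemia replicate 1. In that list Lias, the lipoic acid synthase, had -0.96 (edgeR adjusted p 0.153) and Isca1, an iron-sulfur assembly factor, -0.98 (edgeR adjusted p 0.114). Among 8 tested genes of related 2-oxoacid dehydrogenases, 2 fell and 0 rose, with a median of -0.78 and 8 of 8 estimates below 0. Without sham replicate 2 the median was -0.40 and 7 of 8 were below 0. Ppm1k, the phosphatase of the branched-chain ketoacid dehydrogenase, fell by 1.33 on the log2 scale, from an FPKM of 6.44, 5.61 and 5.82 to 2.57, 2.12 and 2.83 (edgeR adjusted p 0.0372). Dhtkd1, a dehydrogenase of lysine breakdown, fell by 2.03 (edgeR adjusted p 0.0466). Bckdk, the kinase of the branched-chain complex and a relative of the Pdk genes, had -0.53 (edgeR adjusted p 0.372).

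Other routes of pyruvate had 0 higher and 1 lower call among 12 tested genes. The median log2 fold change was -0.58, and -0.009 without sham replicate 2. Pc, pyruvate carboxylase, which makes oxaloacetate, fell by 2.73 on the log2 scale (edgeR adjusted p 0.0446), from an FPKM of 14.1, 13.4 and 42.2 in sham to 5.09, 2.08 and 3.54 in ischemia. The highest value was in sham replicate 3, where the adipocyte gene Adipoq was also highest (93.3, against 12.7 and 19.3 in the other sham samples), and its part in the result was not tested. Without sham replicate 3 Pc was -2.08. Slc16a3, a lactate exporter, had the highest estimate of the list, 5.50 ± 1.27 (SE), with an edgeR adjusted p of 0.0517. Its FPKM was 0.774, 0.846 and 1.83 for sham and 7.49, 151 and 14.6 for ischemia, so all ischemia samples were above all sham samples and replicate 2 was far above the rest. Ldha, the muscle-type lactate dehydrogenase subunit, had 0.48 (edgeR adjusted p 0.215) and Pkm, pyruvate kinase, 0.51 (edgeR adjusted p 0.292).

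A list of regulators of Pdk4 and relatives of them had 1 higher and 1 lower call among 14 tested genes. Its median log2 fold change was -0.48, with 11 of 14 estimates below 0, and -0.30 without sham replicate 2. Pprc1, listed only as a relative of the PGC-1 coactivators, rose by 1.43 (edgeR adjusted p 0.0339). Esrrg, an estrogen-related receptor, fell by 1.30 on the log2 scale (edgeR adjusted p 0.0445). Ppara, Ppargc1a and Ppargc1b had -1.32, -1.12 and -1.76 (edgeR adjusted p 0.118, 0.121 and 0.0655). The glucocorticoid target Klf15 had -1.32 (edgeR adjusted p 0.153). The highest estimate of this list was 2.04, for Nr4a3 (edgeR adjusted p 0.141). Its FPKM was 0.316, 0.0633 and 0.324 for sham and 0.447, 2.11 and 0.485 for ischemia. Foxo1 and Foxo3 had -0.56 and 0.35 (edgeR adjusted p 0.229 and 0.330).

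Pdk4 is a target of PPAR nuclear receptors, and 2 of 17 other tested PPAR targets rose while 0 fell. The median of -0.28 depended on single samples, at 0.27 without sham replicate 2, 0.0004 without ischemia replicate 2 and -0.66 without ischemia replicate 1. Angptl4, a secreted inhibitor of lipoprotein lipase, rose by 5.96 ± 0.61 (SE; edgeR adjusted p 0.0246), from an FPKM of 0.736, 1.30 and 2.82 in sham to 140.4, 76.5 and 99.1 in ischemia. Plin2, a coat protein of lipid droplets, rose by 1.91 ± 0.22 (SE; edgeR adjusted p 0.0272), from 73.1, 60.0 and 58.2 to 241, 323 and 206. Among the fatty acid oxidation genes of the list, the estimate was -0.72 for Cpt1b, -0.31 for Acadm and -0.28 for Hadha (edgeR adjusted p 0.475, 0.692 and 0.729). Without sham replicate 2 these were -0.26, 0.35 and 0.29, and without ischemia replicate 2 they were -0.28, -0.05 and 0.03, so the sign for Hadha turned in both cases and that for Acadm in the first. Among 20 hypoxia-inducible factor targets, 1 rose and 0 fell, with a median of 0.52. Without ischemia replicate 2 the median was 0.14, with 12 instead of 16 of the 20 estimates above 0. In that sample Ero1a, an endoplasmic reticulum oxidase, had an FPKM of 108, against 9.28 and 11.7 in the other ischemia samples and 6.53 to 9.78 in sham. Ddit4, a stress-induced inhibitor of mTORC1, rose by 1.48 ± 0.24 (SE; edgeR adjusted p 0.0327). The glucose transporter Slc2a1 had 3.79 (edgeR adjusted p 0.0687), with 12.4, 197 and 29.9 FPKM for ischemia. It was 2.01 without ischemia replicate 2 (edgeR adjusted p 0.0662) and 4.28 without ischemia replicate 1 (0.0236). Each of the 8 calls in these lists was lost in edgeR without sham replicate 1, 2 or 3 and without ischemia replicate 3, fits in which 0 of all genes passed and between 3020 and 3809 had an unadjusted p under 0.05, while none of the 8 estimates reversed. Without ischemia replicate 2 the calls of Pc and Esrrg were lost as well. Esrrg was called in 5 of 17 alternatives, with all samples kept also being lost with limma at each pseudocount (adjusted p 0.0512 to 0.0559), without a filter in edgeR (0.0574) and under scaling to total counts in edgeR (0.0534). Pc was called in 9 of 18 and Dhtkd1 in 9 of 17, and the other 5 genes were called in 11 or 12.

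**Figure D4:**
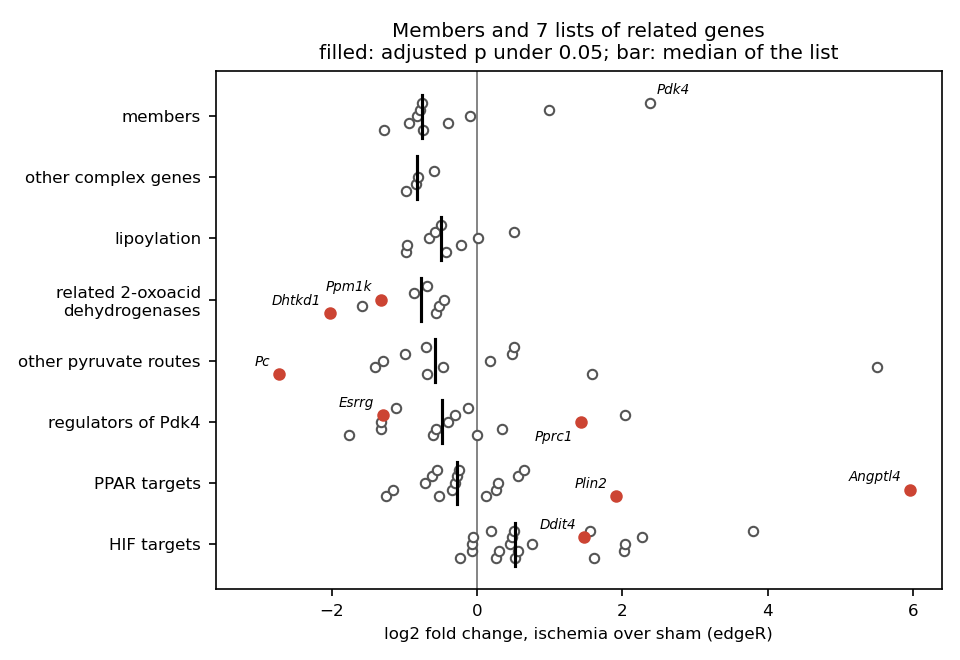
edgeR log2 fold changes of ischemia over sham (horizontal axis) for the 10 genes and 7 lists of related genes, 1 point per tested gene and a bar at each list's median. Filled points passed an adjusted p of 0.05, which 8 genes did, and Pdk4 at 2.38 is the open point farthest right in its row.

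Cell type markers differed between samples and groups, and bulk RNA cannot tell fewer cells of a type from less RNA per cell. Summed FPKM of 9 ventricular cardiomyocyte markers ranged from 25763 to 43786 in sham and from 12793 to 25550.5 in ischemia, with ischemia replicate 2 lowest, but genes that atrial muscle also expresses made up most of it. Myl2, the ventricular light chain, had an FPKM of 366, 2795 and 346 for sham against 1315, 594 and 1238 for ischemia, so the atrial-rich sham replicates 1 and 3 lay below every ischemia sample. Myl3 had the same order, with 796, 9024 and 1021 against 5691, 3180.3 and 5780.0. In this list 0 of 9 passed in edgeR and the median log2 fold change was -0.59, beside -0.76 over the 10 genes, and without sham replicate 2 these were -0.16 and -0.50. The lowest estimates were those of Myh6 (-2.38), Actc1 (-1.70) and Ryr2 (-1.51), each lower in every ischemia sample than in every sham sample (edgeR adjusted p 0.0510, 0.0536 and 0.0696). The highest were those of Myh7 (0.86) and Myl3 (0.20), and Tnnt2 and Tnni3 had -0.43 and -0.59, all with overlap. Myeloid markers rose, 9 of 10 tested, with sums of 109 to 189 in sham and 1274 to 8492 in ischemia, and Retnlg was at 0 counts in all sham samples. Atrial markers had 0 of 6 called, with a range of 216 to 48553 in sham and 1279.7 to 9639 in ischemia. With the atrial score as a covariate the log2 fold changes were 2.41 for Pdk4, -1.29 for Pdk2 and -0.74 for Pdha1, with edgeR adjusted p-values of 0.202, 0.329 and 0.236, in a fit in which 0 of all genes passed and 2644 had an unadjusted p under 0.05. Adipocyte markers (0 of 8 called) summed to 515 to 1427 in sham and 438 to 773 in ischemia. Fabp4 made up most of each of these sums. The median log2 fold change of the list was -3.47, with 7 of 8 estimates below 0, and -2.10 without sham replicate 3. Adipoq had 12.7, 19.3 and 93.3 FPKM for sham and 11.8, 0.044 and 0.052 for ischemia. Fibroblast markers (0 of 5) summed to 685 to 2223 in sham and 264 to 682 in ischemia, with a median of -2.22. Endothelial markers (0 of 5) summed to 170.1 to 183 in sham and 206 to 209.7 in ischemia. Their median log2 fold change was -0.07, and 0.13 without sham replicate 2. Below 0 were 3 of 5 estimates, and Egfl7 was highest at 0.64. Skeletal muscle markers (0 of 2 tested) summed to 2.98 to 6.22 in sham and 3.33 to 6.94 in ischemia. Lung epithelium markers (0 of 3 tested) reached 411 in ischemia replicate 1 and at most 15.1 in the other samples. The part of these cells in the values of the 10 genes was not tested.

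The genes whose pattern over the 6 samples was most like that of Pdk4, by Pearson correlation of log2 CPM, were Kremen1 (0.994), Preb (0.991), LOC100365810 (0.984), LOC108348197 (0.983) and AC126292 (0.982). Their log2 fold changes were smaller than that of Pdk4, from 0.40 for LOC108348197 to 1.37 for AC126292, and none of the 5 passed in edgeR. In all, 163 of 13963 genes had a correlation above 0.9 with Pdk4, over samples that share the same group difference.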

How the data were processed

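The authors deposited 1 table with raw read counts and FPKM for 32623 Ensembl rat genes in 6 samples. Counts as the authors deposited them were unnormalized. The authors also deposited FPKM, where 0.0001 stands for no reads. Dividing counts by FPKM gave 1 constant factor per sample within 1% for 99.97% of 9998 genes with 200 or more counts throughout. The submitters' processing notes named STAR and HTSeq without versions, and the genome build was not given in the sources used here.

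The 13964 genes that averaged 0.5 FPKM or more were tested with the quasi-likelihood test of edgeR 4.0.16 in R 4.3.3 on counts with TMM scaling, ischemia against sham, without covariates, two-sided, with Benjamini-Hochberg adjustment over all tested genes. The SE was derived from the F statistic. Ratios and shares were computed on FPKM and compared with two-sided exact permutation tests. The method was tested on simulated data. Alternatives used DESeq2 1.42.0, limma 3.58.1 on log2(FPKM + 0.1), other filters and scalings, an atrial covariate, the replicate block and each sample left out. Whether same-numbered samples deviated together was checked on log2 CPM. The kit was stranded, but how HTSeq used strand was not given, so overlapping genes are uncertain.

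The genes and lists were chosen with earlier results of these data known. All 10 genes are named, as are all called genes of the 7 related lists (if over 8 in a list, the 4 highest and 4 lowest), the 4 remaining genes of the complex, and the 5 genes most correlated with Pdk4. Other named genes were chosen after their values were seen. Of the 156 distinct list genes, 8 were not analysed here. Slc16a7, Fpr1, Fpr2, Myh4, Tnni2, Actn3 and Sftpb averaged under 0.5 FPKM and were not tested, though their FPKM is in the sums. Figures were drawn with matplotlib 3.10.9. The CPM values given for 3 counts cover counting error only, while SDs and SEs cover the spread between samples.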

Additional observations from a re-analysis of the deposited data

How the results depend on the processing

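All 10 genes but Pdk1 and Pdk3 kept the sign of their log2 fold change in each of 18 alternatives, which were all planned. Pdk4 ranged from 1.90 to 2.78 with adjusted p-values from 0.00025 to 0.202 and passed in 6 of the 18. Pdk1 turned positive with limma on log2(FPKM + 0.1), log2(FPKM + 1) and log2(FPKM + 0.01) (0.23, 0.23 and 0.23), with total counts only (0.079) and with the replicate block (0.17), and ranged from -0.39 to 0.72 with a sample left out. Pdk3 ranged from -0.080 to 1.31 with a sample left out, and its share of the kinase pool differed by -0.54 to 5.84 percentage points. The causes were not tested.

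With a sample left out, differences in log2 ratio ranged from -1.22 to 0.40 for Pdk1/Pdk3, from -0.26 to 0.14 for Pdhb/Pdha1 and from -0.28 to 0.18 for the carrier sum over Pdha1. DESeq2 called 2071 genes higher and 1742 lower (54.3% higher against 77.2%), of the 10 genes 1 higher and 2 lower, and of the 7 lists 9 and 11. Limma called 1 of the 10 higher at each pseudocount, where 850, 657 and 781 of 13964 genes were higher at 0.1, 1 and 0.01. A mean FPKM of at least 5 gave 1 higher and 1 lower of the 10 and 1 lower list gene. Without a filter 93 genes and 1 list gene were lower, and with total counts only 83 and 1 (86.0% of calls higher). By p under 0.01 with a log2 fold change beyond 2, 462 genes were higher, with 1 of the 10, and 2 list genes were lower. With a sample left out, higher genes ranged from 0 to 1490, lower genes from 0 to 1115, higher members of the 10 from 0 to 1, and list genes from 0 to 7 higher and 0 to 5 lower.

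The atrial covariate gave 0 higher and 0 lower genes and 0 and 0 list genes, with 2644 genes at an unadjusted p under 0.05 in edgeR. Same-numbered samples did not deviate together (correlations -0.05, -0.08 and -0.19), so the numbers were not taken as pairs. With the replicate block 0 genes were higher and 0 lower, with 0 and 0 list genes and 3349 genes at an unadjusted p under 0.05 in edgeR, and Pdk4 was 2.18 (adjusted p 0.133). Differences in log2 ratio with the replicate block equal those without it, as for Pdk4/Pdk2 (3.67), with a smallest possible p of 0.25.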
